A study of Mus musculus with 23 samples.

Results

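The miR-192, miR-194 and miR-215 family of mouse liver comprised 7 mature miRNAs, namely mmu-miR-192-5p, mmu-miR-192-3p, mmu-miR-194-5p, mmu-miR-194-1-3p, mmu-miR-194-2-3p, mmu-miR-215-5p and mmu-miR-215-3p, written here without the species prefix. They were taken by name, and all 7 were among the 1218 mature miRNAs that were counted. Of these, 386 miRNAs had enough counts to be tested, and 5 of the 7 members were among them; miR-194-1-3p and miR-215-3p were too rare and are described by their counts. Small RNA of whole liver was sequenced in 23 fasted male C57bl/6J mice of the third generation of a dietary lineage. The control lineage had been raised on a growing diet with 1% high-oleic sunflower oil, and the omega 3 lineage on the same kind of diet with 1% fish oil rich in eicosapentaenoic acid (EPA). For 17 weeks, 8 control-lineage mice (HFoleic) and 7 omega 3 mice (HFepa) were fed a diet high in sucrose that gave 45% of energy as fat. The reference group held 8 mice of the control lineage on a low-fat diet with 10% of energy as fat. No low-fat group of the omega 3 lineage was among the samples, so lineage and diet cannot be told apart in HFepa vs. reference. No reference library was numbered above 11 and no HFepa library below 12, so this comparison has no value within a range of library numbers, and a term for library number rests on the HFoleic libraries, which lie on both sides.

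In mammals these miRNAs come from 2 small clusters, 1 with miR-192 and a copy of miR-194 and the other with miR-215 and the other copy of miR-194. Hepatocyte nuclear factors drive both clusters, and the family is known from liver, kidney and gut epithelium, miR-215 being best known from the gut. Each hairpin precursor is cut into a 5p and a 3p arm, and the arm that enters the Argonaute complex finds its target mRNAs mainly through its seed, bases 2 to 8 from the 5′ end. miR-192 and miR-215 are widely studied as p53-responsive miRNAs and as regulators of the cell cycle, and circulating miR-192 has been followed as a marker of liver injury.

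The mature sequences are shown because the groups of the family rest on them. They were read from RefSeq on GRCm38.p6, where all 7 names matched, and the seed is in capitals. The first pair shares its seed:
miR-192-5p: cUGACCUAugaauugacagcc
miR-215-5p: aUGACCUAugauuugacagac
miR-194-5p: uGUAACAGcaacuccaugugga
miR-194-1-3p: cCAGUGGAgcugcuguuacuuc
miR-194-2-3p: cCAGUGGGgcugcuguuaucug
miR-192-3p: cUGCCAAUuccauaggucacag
miR-215-3p: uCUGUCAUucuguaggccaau

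miR-192-5p and miR-215-5p were identical at 18 of 21 positions, and the substitutions, counted from 1 at the 5′ end with the base of miR-192-5p first, were C1A, A12U and C20A, all outside the seed. No other mature miRNA of the 1679 compared had the seed UGACCUA. The mature miR-194-5p is the same sequence from both loci, and its seed GUAACAG was found in no other miRNA. The 3p arms of miR-194 do tell the loci apart: they were identical at 18 of 22 positions and differed, with miR-194-1-3p first, by A8G, C19U, U20C and C22G. A8G lies in the seed, so the 3p arms of the 2 loci have different seeds.

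The hairpins show how the arms sit in each precursor, and the mature arms are in capitals. Mir192 lies at chr19:6264844-6264932 and Mir194-2 at chr19:6264643-6264728, both on the plus strand with 115 bases between them, and no other annotated gene overlapped either. Mir215 lies at chr1:185313581-185313692 and Mir194-1 at chr1:185313319-185313385, also on the plus strand, with 195 bases between them. The chromosome 1 pair lies opposite to an intron of Iars2, the mitochondrial isoleucyl-tRNA synthetase gene on the minus strand. On its own strand it lies within the antisense gene 2010103J01Rik, with Mir194-1 in an intron and Mir215 in an exon. No other annotated miRNA gene was found within 50 kb of either pair.
Mir192: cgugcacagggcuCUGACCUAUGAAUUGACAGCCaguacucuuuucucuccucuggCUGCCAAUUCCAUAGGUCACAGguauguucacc
Mir194-2: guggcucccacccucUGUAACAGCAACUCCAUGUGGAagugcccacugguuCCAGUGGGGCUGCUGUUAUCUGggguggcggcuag
Mir215: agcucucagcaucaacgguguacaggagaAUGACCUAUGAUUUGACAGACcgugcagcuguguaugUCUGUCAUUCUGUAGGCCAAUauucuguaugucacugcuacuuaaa
Mir194-1: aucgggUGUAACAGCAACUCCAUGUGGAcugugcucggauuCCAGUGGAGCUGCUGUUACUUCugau

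Each library came from 1 mouse and held between 3725432 and 8139344 counts. Levels are given as CPM, the count scaled to a common library total, with TMM factors that correct for differences in library composition. The factor was 1.26 in library 3 and 0.930 to 1.13 in the others. Levels in library 3 are therefore lower in CPM than by library total alone. All members are 21 or 22 bases long, so their levels can be set side by side, although the efficiency of ligation of each sequence is not known. miR-122-5p, the hepatocyte-specific miRNA, was found at 10804 CPM or more in every library. Libraries 3, 4 and 5, all of the reference group, stood apart in some of their miRNAs. In library 3, 140 of the 386 tested miRNAs were the highest or the lowest of all 23 libraries, as compared to 9 to 66 in each other library. The summed level of 10 hepatocyte miRNAs was 231295 CPM in library 3 and 259836 to 338005 CPM in the others, while that of 11 intestinal and ductal epithelial miRNAs was 5071 CPM in library 3 and 1134 to 3220 CPM in the others. The sum of 5 smooth muscle and stellate cell miRNAs was likewise highest in library 3 (42509 CPM, others 19870 to 33222 CPM). In library 3, most of the hepatocyte sum was miR-22-3p (130394 CPM) and miR-148a-3p (74359 CPM). Most of the epithelial sum was miR-182-5p (3151 CPM), and most of the stellate cell sum miR-143-3p (39909 CPM). Of the 386 tested miRNAs, miR-215-5p and the muscle miRNA miR-133a-3p were more than 2-fold above all other libraries in library 4. Library 5 had 2020 CPM of miR-375-3p, best known from the endocrine pancreas, and the others had 9.00 to 57.3 CPM. The other pancreas miRNAs listed, miR-216a-5p, miR-216b-5p and miR-217-5p, reached at most 0.893, 0.357 and 0.536 CPM in any library. The levels of the family members in library 5 were within the range of the other libraries. Results that rest on these libraries are given with and without them. As whole liver was sequenced, fewer cells of a type and less RNA per cell cannot be told apart.

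miR-192-5p had the highest level of all miRNAs counted in these liver libraries. It ranked first by mean level among all 1218 miRNAs and was the highest miRNA in 21 of the 23 libraries, the exceptions being libraries 3 and 22. In the reference group its level was 98104 CPM at the lowest, 204678 CPM at the median and 219099 CPM at the highest (mean 189214 ± 39112 CPM, SD, n = 8). In HFoleic it ran from 189327 over a median of 226434 to 239389 CPM (220678 ± 15648 CPM, SD, n = 8), and in HFepa from 188228 over 204916 to 227515 CPM (205717 ± 13139 CPM, SD, n = 7). The 3 groups overlapped, and the reference group had the widest range through library 3 alone; the next lowest reference library was at 182763 CPM.

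**Figure D1:**
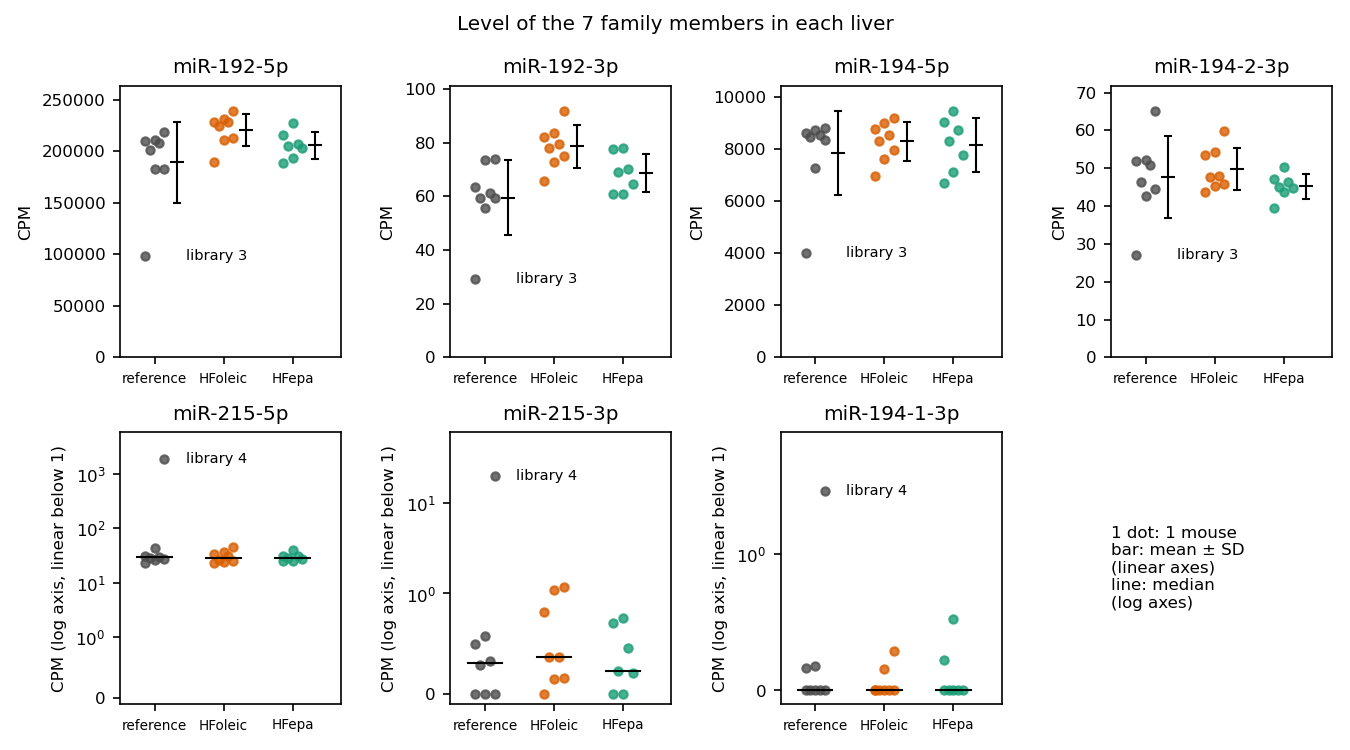
Level of each family member in CPM in each of the 23 livers by group; miR-215-5p, miR-215-3p and miR-194-1-3p are on a log axis that is linear below 1 CPM. Dots are mice, bars on linear axes are mean ± SD, and lines on log axes are medians; library 3 is lowest for the 4 members on linear axes, and library 4 stands at 1885 CPM of miR-215-5p while all others are between 22.5 and 45.2 CPM.

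The other arm of this hairpin, miR-192-3p, was rare. Reference livers had a mean of 59.5 ± 13.9 CPM (SD, n = 8), HFoleic livers a mean of 78.6 ± 7.88 CPM (SD, n = 8) and HFepa livers a mean of 68.8 ± 7.12 CPM (SD, n = 7). Its libraries ran from 29.3 over a median of 60.3 to 73.8 CPM in the reference group, from 65.6 over 78.8 to 91.9 CPM in HFoleic and from 61.0 over 69.1 to 78.1 CPM in HFepa. The HFoleic libraries were mostly above those of the reference group, with an overlap between 65.6 and 73.8 CPM, and HFepa lay in between.

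miR-194-5p, the mature product that both loci share, had the second highest level of the members and ranked 20 among all miRNAs. On average it reached 7837 ± 1620 CPM (SD, n = 8) in reference livers, 8283 ± 751 CPM (SD, n = 8) in those of HFoleic and 8147 ± 1025 CPM (SD, n = 7) in those of HFepa. The reference libraries ran from 4005 over a median of 8476 to 8798 CPM, the HFoleic libraries from 6946 over 8416 to 9184 CPM and the HFepa libraries from 6673 over 8300 to 9459 CPM. The 3 medians were close and the groups overlapped almost throughout, library 3 being the exception at the low end.

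Of the 3p arms of miR-194, miR-194-2-3p of chromosome 19 was found in every library and miR-194-1-3p of chromosome 1 in few. miR-194-2-3p averaged 47.6 ± 10.8 CPM (SD, n = 8) in reference livers, 49.8 ± 5.55 CPM (SD, n = 8) in those of HFoleic and 45.3 ± 3.30 CPM (SD, n = 7) in those of HFepa. Its libraries ran from 27.0 to 65.2 CPM, from 43.8 to 59.9 CPM and from 39.5 to 50.3 CPM in the 3 groups, which overlapped. miR-194-1-3p had 27 counts in library 4 and 0 to 2 counts in each of the other 22 libraries, with none in 16 of them. In the 22 libraries other than library 4, miR-194-1-3p made up 8 of the 5589 counts of both 3p arms, or 0.143%. In the 16 libraries with 0 counts, 3 counts would have been a share of 0.917 to 1.81%.

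miR-215-5p and miR-215-3p were low in 22 of the 23 libraries. Outside library 4, miR-215-5p ran from 22.5 over a median of 28.2 to 45.2 CPM, and miR-215-3p had 0 to 5 counts in a library, with 0 in 6 of them. miR-215-5p averaged 30.5 ± 7.73 CPM (SD, n = 8) in the HFoleic livers and 29.6 ± 4.96 CPM (SD, n = 7) in the HFepa livers. The reference median of 29.3 CPM was close to these, but the reference mean with library 4 was 261.6 ± 656 CPM (SD, n = 8).

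By level the order of the members was thus miR-192-5p, miR-194-5p and then the other members. miR-192-5p held 96.1% and miR-194-5p 3.81% of all counts of the family, and their ranges did not overlap in any group. In the 21 libraries other than 3 and 4, miR-192-3p was followed by miR-194-2-3p and miR-215-5p. In library 3, miR-215-5p at 43.0 CPM was above miR-192-3p at 29.3 CPM and miR-194-2-3p at 27.0 CPM. The ranges of miR-192-3p and miR-194-2-3p touched across libraries (55.6 to 91.9 CPM and 39.5 to 65.2 CPM, without library 3), and so did those of miR-194-2-3p and miR-215-5p. miR-215-3p and miR-194-1-3p could not be ordered at this depth outside library 4.

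Library 4, a reference liver, had 15726 counts of miR-215-5p, or 1885 CPM. This was 66.8-fold the median and 41.7-fold the highest of the other 22 libraries. miR-215-3p had 168 counts (20.1 CPM) in library 4 and 41 counts in the 22 others together, a rate that was 57.2-fold higher (exact 95% confidence interval 40.4 to 82.5, counting error only). miR-194-1-3p, the third product that tells the chromosome 1 locus apart, was 47.1-fold higher by the same measure (20.8 to 120 for 27 against 8 counts). All 3 products that come from chromosome 1 alone were high in this 1 liver, and by factors whose intervals overlap for the 2 rare ones.

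The members of chromosome 19 and the shared miR-194-5p were within the range of the other libraries in library 4. miR-192-5p was at 182763 CPM, or 0.867 of the median of the others, which was the lowest level once library 3 is left aside. miR-192-3p was at 59.5 CPM, miR-194-2-3p at 42.7 CPM and miR-194-5p at 8317 CPM. miR-215-5p was 1.02% of the counts of miR-192-5p and miR-215-5p together in library 4 (Wilson 95% confidence interval 1.01 to 1.04%) and 0.00966 to 0.0438% in the others. miR-194-1-3p was 7.05% of both miR-194 3p arms (4.89 to 10.1%), as compared to 0 to 1.16% in the others. The chromosome 1 products stayed a small part of both pools also in library 4.

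The summed levels of the muscle and of the red blood cell miRNAs were also highest in library 4. The summed level of the muscle and heart miRNAs, 6 of 7 of which were in the table, was 219 CPM in library 4 and 1.59 to 12.4 CPM in the others. Most of it was miR-133a-3p, with 205 CPM in library 4 and 1.30 to 11.4 CPM elsewhere. miR-1a-3p had 8.99 CPM in library 4 and 0 to 1.62 CPM elsewhere. miR-499-5p of the same list was not raised, with 0.360 CPM in library 4 and 0 to 0.710 CPM elsewhere. The 4 red blood cell miRNAs summed to 8773 CPM in library 4 and 3571 to 7635 CPM in the others. The 11 intestinal and other ductal epithelial miRNAs, in contrast, summed to 2411 CPM in library 4, within the 1134 to 5071 CPM of the other libraries. The part of these cells in the level of miR-215 was not tested.

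**Figure D2:**
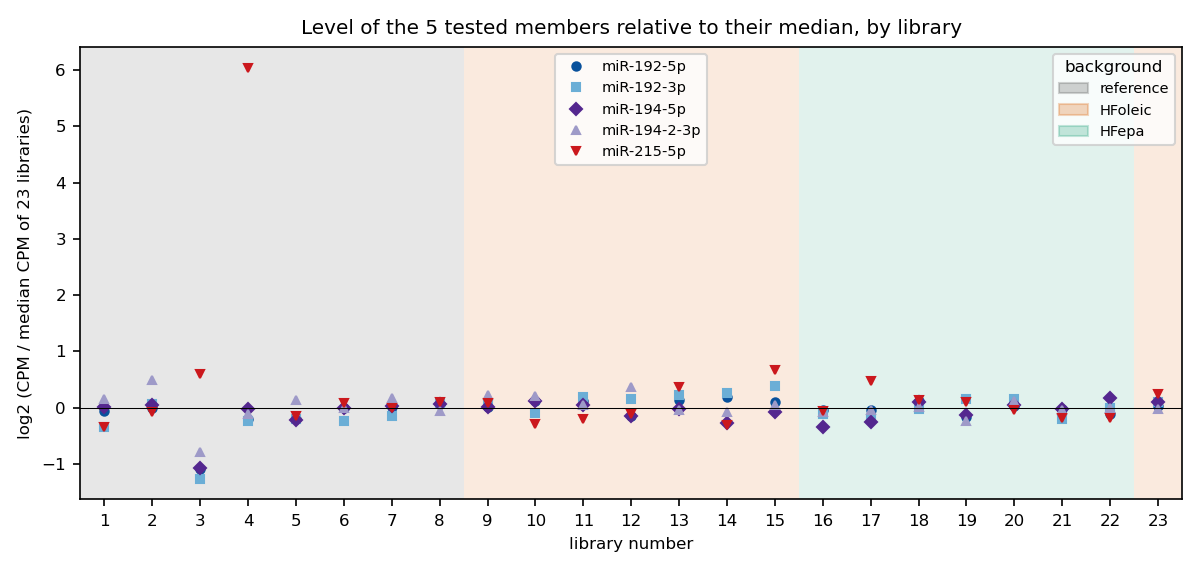
Level of the 5 tested members in each library as log2 of the CPM over the median CPM of the 23 libraries; the background colour is the group. In library 3 the 4 members other than miR-215-5p were lower than in all other libraries, and in library 4 miR-215-5p was 66.8-fold above the median of the other libraries.

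Library 3, also a reference liver, departed the other way. miR-192-5p was at 98104 CPM, 0.466 of the median of the other 22 libraries, and miR-192-3p at 29.3 CPM, 0.410 of it. miR-194-5p was at 4005 CPM, 0.472 of the median, and miR-194-2-3p at 27.0 CPM, 0.577 of it. These 4 of the 5 tested members were below all other 22 libraries, which held for 15.0% of all tested miRNAs. By share of counts these 4 were also lowest in library 3, with miR-192-5p at 12.3% (median of the others 21.1%). miR-215-5p was at 43.0 CPM in library 3, the second highest level after library 15 once library 4 is left aside. By share of counts it was the highest there outside library 4, at 0.00541%. By summed level in CPM, the epithelial and stellate cell lists were highest and the hepatocyte list lowest in this library. By library total, without the TMM factors, the hepatocyte list was not lowest there. Of the hepatocyte list, the miR-122 and miR-101 members and miR-22-3p were lowest there in CPM. By library total, miR-22-3p was not lowest there. The miR-148a and miR-802 members and miR-378a-3p were not, with miR-148a-3p at 74359 CPM (others from 53256 CPM) and miR-802-5p at 733 CPM (others from 277 CPM). In the epithelial list, miR-147-3p, miR-183-5p and miR-96-5p were not highest there. The leukocyte list was also highest (3557 CPM, others 1533 to 2800 CPM), with most of it miR-142a-5p (1911 CPM). Of its members, miR-146a-5p was not highest there (633 CPM, others up to 657 CPM). The red blood cell list was lowest in CPM by a narrow margin (3571 CPM, others 3624 to 8773 CPM), and of its members only miR-144-5p was lowest. By library total, neither this list nor miR-144-5p was lowest there. miR-122-5p was at 10804 CPM as compared to 13698 to 22878 CPM elsewhere. The part of these cell types in the level of the family was not tested.

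HFoleic vs. reference asked what the diet rich in fat and sucrose changed within the control lineage. Changes were tested by the quasi-likelihood test of edgeR, with p-values adjusted by Benjamini-Hochberg over all 386 tested miRNAs, and calls needed an adjusted p under 0.05 and a log2 fold change over 0.25 in size. Of the 5 tested members 2 were called, miR-192-3p higher and miR-215-5p lower. Of all tested miRNAs 12.4% were called, 4.92% higher and 7.51% lower. miR-192-3p rose by a log2 fold change of 0.40 (SE 0.13, adjusted p = 0.0455 by edgeR). It kept its call in 7 of the 23 fits that left out 1 library each. The change was 0.30 without library 3 (adjusted p = 0.0285 by edgeR), 0.38 without library 5 (adjusted p = 0.0912 by edgeR) and 0.25 without libraries 3 and 4 (adjusted p = 0.0917 by edgeR). With a term for library numbers 1 to 11 or 12 to 23 it was 0.29 (adjusted p = 0.503 by edgeR), and in libraries 1 to 11 alone, with 3 HFoleic mice, it was also 0.29 (adjusted p = 0.690 by edgeR).

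The call of miR-215-5p rested on library 4. Its fitted log2 fold change was -3.11 (SE 0.86, adjusted p = 0.0249 by edgeR) with all libraries and 0.03 (SE 0.15, adjusted p = 0.919 by edgeR) without library 4. DESeq2, which replaced the count of library 4 by a trimmed mean, gave 0.02 (adjusted p = 0.944). Leaving out library 14 of HFoleic also took the call away, at -3.01 (adjusted p = 0.0557 by edgeR). The other 7 reference libraries spanned 22.5 to 43.0 CPM and the 8 HFoleic libraries 23.1 to 45.2 CPM.

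The 3 other tested members did not pass. miR-192-5p had a log2 fold change of 0.22 (SE 0.11, adjusted p = 0.175 by edgeR), which was 0.13 without library 3 and 0.07 without libraries 3 and 4. For miR-194-5p the value was 0.08 (SE 0.12, adjusted p = 0.678 by edgeR) and for miR-194-2-3p 0.07 (SE 0.12, adjusted p = 0.741 by edgeR). Both turned to the negative side, at -0.01, when library 3 was left out. The median log2 fold change of the 5 members was 0.08 and that of all tested miRNAs 0.00.

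**Figure D3:**
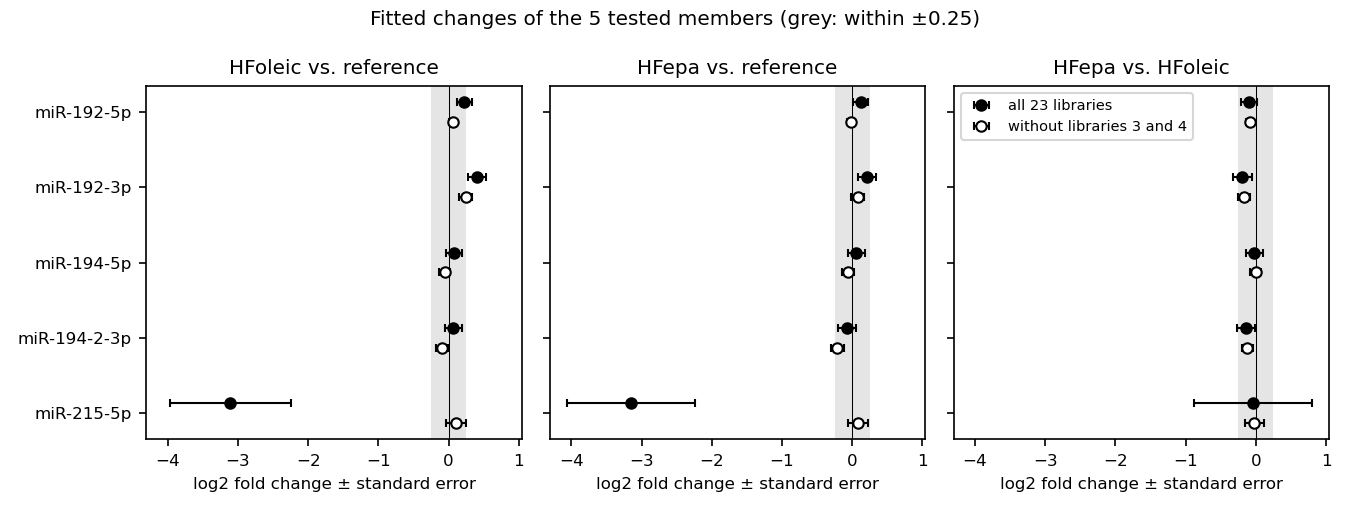
Log2 fold change ± standard error of the 5 tested members in the 3 comparisons, fitted with all 23 libraries (filled) and without libraries 3 and 4 (open); the grey band is within 0.25 of no change. miR-215-5p moved from -3.11 to 0.11 in HFoleic vs. reference when both libraries were left out, and miR-192-3p from 0.40 to 0.25.

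HFepa vs. reference set the omega 3 lineage on the high-fat diet against the low-fat control lineage. Here 1 of the 5 tested members was called, miR-215-5p, which was lower, and 15.8% of all tested miRNAs were called, 5.18% higher and 10.6% lower. Its log2 fold change was -3.15 (SE 0.91, adjusted p = 0.0249 by edgeR). Without library 4 it was -0.01 (SE 0.16, adjusted p = 0.972 by edgeR), with DESeq2 0.00 (adjusted p = 0.995), and without library 22 of HFepa -3.05 (adjusted p = 0.0516 by edgeR). miR-192-3p had 0.21 (SE 0.13, adjusted p = 0.328 by edgeR) and miR-192-5p 0.12 (SE 0.11, adjusted p = 0.539 by edgeR). miR-194-5p was at 0.06 (SE 0.12, adjusted p = 0.810 by edgeR) and miR-194-2-3p at -0.07 (SE 0.12, adjusted p = 0.762 by edgeR). Without libraries 3 and 4, miR-192-5p was at -0.02, miR-194-5p at -0.06 and miR-194-2-3p at -0.21. This comparison and the former share the 8 reference libraries.

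HFepa vs. HFoleic asked how the lineages differed on the same high-fat diet. None of the 5 tested members was called, and 0% of all 386 tested miRNAs were called by edgeR, with 22 (5.7%) at an unadjusted p under 0.05. DESeq2 called 0 of the 386 as well. The log2 fold changes were -0.10 (SE 0.11) for miR-192-5p, -0.19 (SE 0.13) for miR-192-3p, -0.02 (SE 0.12) for miR-194-5p, -0.14 (SE 0.12) for miR-194-2-3p and -0.04 (SE 0.84) for miR-215-5p. The SE of miR-215-5p was 0.15 without library 4. The adjusted p-values of edgeR were between 0.901 and 0.983.

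The whole family made up 20.1 ± 3.09% (SD, n = 8) of a library's counts in the reference group, 22.4 ± 0.810% (SD, n = 8) in HFoleic and 21.2 ± 1.09% (SD, n = 7) in HFepa. The share was 12.8% in library 3 and 19.6 to 22.4% in the other reference libraries, 20.6 to 23.2% in HFoleic and 19.5 to 22.5% in HFepa. The difference of HFoleic and reference was 2.32 percentage points and fell to 1.29 points without library 3. HFepa was 1.07 points above the reference group and 0.03 points above it without library 3. HFepa and HFoleic differed by -1.26 points, and by -1.08 points in libraries 12 to 23 alone. No test of this sum over the members was made.

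Ratios between members within a library do not depend on its scaling. Of 6 ratios in 3 comparisons, none passed Benjamini-Hochberg adjustment over the 18 two-sided exact permutation tests. The log2 ratio of miR-192-5p to miR-192-3p was 11.64 ± 0.12 (SD, n = 8) in the reference group and 11.46 ± 0.16 (SD, n = 8) in HFoleic. The difference was -0.18 (exact p = 0.0207, adjusted p = 0.203). The log2 ratio of miR-192-5p to miR-194-5p was 4.59 ± 0.06 (SD, n = 8) in the reference group and 4.74 ± 0.17 (SD, n = 8) in HFoleic, a difference of 0.14 (exact p = 0.0225, adjusted p = 0.203). Library 3 had 4.61 for this last ratio and so lay within the reference range of 4.46 to 4.65, both members being reduced by a like factor. For miR-194-5p to both its 3p arms, the ratio was 7.35 ± 0.19 (SD, n = 8), 7.37 ± 0.19 (SD, n = 8) and 7.48 ± 0.17 (SD, n = 7) in reference, HFoleic and HFepa.

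Across mice, the correlations of miR-192-5p with miR-192-3p and miR-194-5p were high with all libraries and fell without libraries 3 and 4. Over 23 libraries, log2 CPM of miR-192-5p and miR-192-3p had Pearson's r = 0.854 (permutation adjusted p = 0.0042) and Spearman's rho = 0.614 (permutation adjusted p = 0.023). Without the 2 libraries farthest from the median, libraries 3 and 4, r was 0.422. miR-192-5p and miR-194-5p had r = 0.815 (permutation adjusted p = 0.026) and rho = 0.406 (permutation adjusted p = 0.19), and r = 0.236 without libraries 3 and 4. Within libraries 12 to 23, r was 0.372 for the former pair and 0.0185 for the latter; within libraries 1 to 11, which include library 3, r was 0.947 and 0.983. The permutation p-values were adjusted over the 10 pairs of tested members. miR-215-5p and miR-192-5p, which share a seed, had r = -0.198 (permutation adjusted p = 0.14) and rho = -0.122 (permutation adjusted p = 0.70) with all libraries. Their r was -0.473 without libraries 4 and 15, the farthest from the median of miR-215-5p, and 0.159 without libraries 3 and 4.

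**Figure D4:**
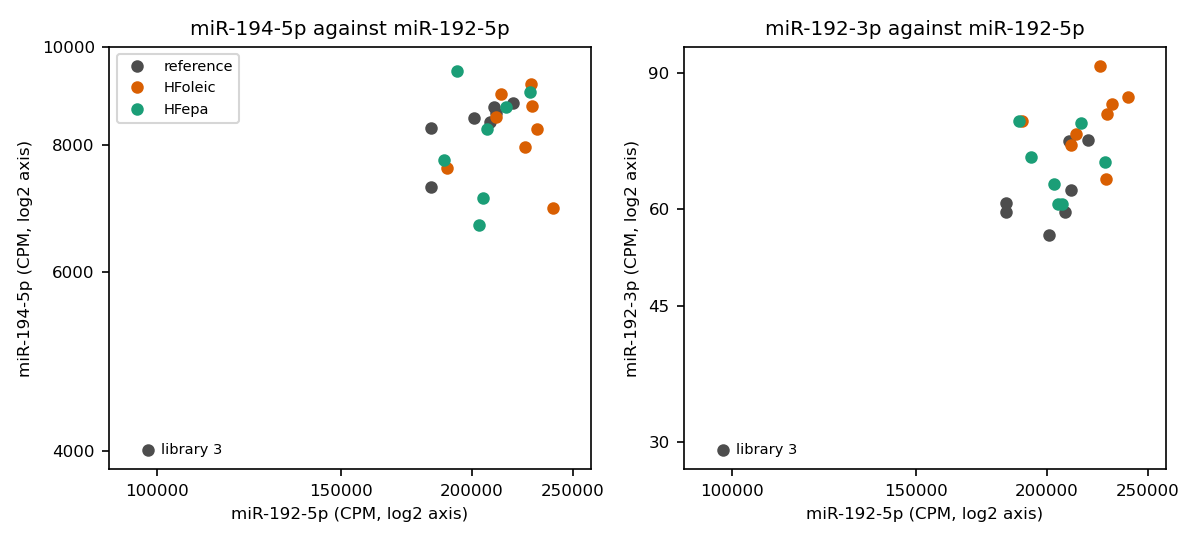
miR-194-5p (left) and miR-192-3p (right) against miR-192-5p in CPM on log2 axes, 1 dot per mouse. Library 3 lies apart at the lower left in both plots; without libraries 3 and 4, r was 0.236 on the left and 0.422 on the right.

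With all libraries, the spread between mice of a group was below the median of all tested miRNAs for each tested member except miR-215-5p. The within-group SD of log2 CPM was 0.24 for miR-192-5p and 0.26 for miR-194-5p, and the median over all tested miRNAs was 0.33. Without library 3, the SD of miR-192-5p was 0.10 and that of miR-194-5p 0.14, and the median over all tested miRNAs was 0.30. For miR-192-3p and miR-194-2-3p the SD was 0.27 and 0.24 with all libraries, and 0.15 and 0.16 without library 3. miR-215-5p had an SD of 1.29, which was 0.29 without library 4. That was below the median of 0.32 over all tested miRNAs without library 4.

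The miRNAs whose level kept most constant to that of a member were found by the SD of their log2 ratio over the 23 libraries, among 381 tested miRNAs outside the family. For miR-192-5p these were miR-1843a-5p (0.11), miR-101b-3p (0.12), miR-29c-3p (0.12), miR-365-3p (0.14) and miR-101c (0.14), as compared to a median of 0.44 over all 381. For miR-194-5p they were miR-29c-3p (0.11), miR-203b-5p (0.12), miR-1843a-5p (0.12), miR-203-3p (0.13) and miR-1843b-5p (0.15). The SD of the log2 ratio of miR-192-5p to miR-194-5p was 0.15. For miR-215-5p the closest were miR-133a-3p (0.82), miR-144-5p (1.16), miR-486a-3p (1.16), miR-486b-3p (1.16) and miR-486b-5p (1.17). The first is a muscle miRNA and the others are known from red blood cells. The median over all 381 was 1.32, close to the values of these others. Without library 4 the closest were miR-15b-5p (0.19), miR-148b-3p (0.20), miR-106b-5p (0.22), miR-425-5p (0.23) and miR-152-5p (0.24), with a median of 0.43. None of these was in the former list. These ratios share the scaling of each library and are given as a description.

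Other hepatocyte miRNAs give a frame for miR-192. Of the 10 of the hepatocyte list, all tested, only miR-101b-3p was called in HFoleic vs. reference, with a log2 fold change of 0.34 (adjusted p = 0.0464 by edgeR), a call kept in 9 of the 23 fits that left out 1 library each, and none was called in HFepa vs. reference or HFepa vs. HFoleic. miR-22-3p had the highest mean level of the list, at 181548 CPM. Its log2 fold change was 0.16 in the HFoleic and 0.17 in the HFepa comparison with the reference group, neither passing the test. miR-122-5p had a log2 fold change of 0.00 in both comparisons with the reference group. The median log2 fold change of the list was 0.12 in HFoleic vs. reference, 0.00 in HFepa vs. reference and -0.13 in HFepa vs. HFoleic. Of the other lists, the only called members were miR-375-3p of the pancreas, miR-133a-3p of muscle and miR-150-5p of leukocytes, each lower in both comparisons with the reference group, and miR-429-3p of epithelium, lower in HFepa vs. reference. miR-150-5p kept its call in all 23 fits that left out 1 library each, in both comparisons. The other 3 lost theirs without 1 reference library, and miR-133a-3p and miR-429-3p without some others too. Without library 5, miR-375-3p was at -0.32 in HFoleic vs. reference (adjusted p = 0.560 by edgeR) and at -0.62 in HFepa vs. reference (adjusted p = 0.240 by edgeR). Without library 4, miR-133a-3p was at -0.15 (adjusted p = 0.826 by edgeR) and -0.36 (adjusted p = 0.665 by edgeR) in the same comparisons. Without library 3, miR-429-3p was at -0.48 in HFepa vs. reference (adjusted p = 0.0750 by edgeR).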

How the data were processed

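Small RNA libraries of 23 livers were grouped by the lineage and diet of their sample labels, and each mouse was 1 replicate; whether mice shared a litter or cage is not given in the sources used here, so p-values measure the spread between these samples. Base calls were made with bcl2fastq 2.17.1.14 per the submitters' processing notes. The authors removed adapters, aligned the reads through ncPRO-seq, which calls Bowtie, and deposited raw counts per mature miRNA; the genome is named GRCm38.p6 and mm9 in the methods and mm10 in the labels, and the counts carry no coordinates. The alignment allowed mismatches up to a limit on their summed base qualities; how reads that matched both loci of miR-194, or both miR-192-5p and miR-215-5p, were counted is not given in the sources used here. The authors also deposited a signal per library, the count divided by a size factor, and group means, log2 fold changes and p-values, none of which were used.

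Of 1218 miRNAs, 386 passed filterByExpr by group. Changes came from 1 edgeR fit over 3 groups with TMM factors and its quasi-likelihood test, p-values being adjusted over all tested miRNAs by Benjamini-Hochberg. Calls needed an adjusted p under 0.05 together with a log2 fold change over 0.25 in size. The study names DEGseq, which pools reads; edgeR was used so that mice are the unit of error. Ratios used a pseudocount of 0.5 counts and two-sided exact permutation tests. Correlations used 100000 resamples of a permutation test and log2 CPM, where the prior count was 2. The sum over members was planned with a test and is given without one, because the members were chosen with results known. Members and marker lists were chosen with earlier results of these data known. Named were all members, called or most abundant miRNAs of the marker lists, and the 5 miRNAs closest to each of 3 members. Libraries of a group were compared by chi-square, at least 16.3 per degree of freedom over 77 pairs. At this depth, the comparison cannot tell libraries of the same RNA from those of different mice. Each library counted as its own replicate by its sample label. Library totals were 3725432 to 8139344 counts. Intervals cover counting error only, since the methods name no molecular identifiers for these amplified libraries. The alternatives tried were limma after quantile normalization, DESeq2, library totals, members left out of scaling, no filter, no fold threshold, the 2 groups compared, library number as a term or as a split, another pseudocount and each library left out; leaving out libraries 3 and 4 together was added after seeing the data. The edgeR fit was tested on simulated data. R 4.3.3, edgeR 4.0.16, DESeq2 1.42.0, limma 3.58.1, Python 3.11.15, pandas 2.3.3, scipy 1.17.1 and matplotlib 3.10.9 were used. Sequences and positions came from RefSeq, GRCm38.p6, and overlapping genes from GENCODE on the same assembly.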

Additional observations from a re-analysis of the deposited data

Results flagged for a closer look

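The highest or lowest library of a group was set against the others of its group in 42 tests on the members, the family share and the ratios, and 13 stood apart by Dixon's criterion; chance gives about 1 in 20 groups. In reference library 3, the lowest of its group, these were miR-192-5p at 98104 CPM (others 182763 to 219099), miR-192-3p at 29.3 CPM (55.6 to 73.8), miR-194-5p at 4005 CPM (7276 to 8798) and the family share at 12.8% of counts (19.6 to 22.4%). In reference library 4, the highest, they were miR-215-5p at 1885 CPM (22.5 to 43.0), miR-215-3p at 20.1 CPM (0 to 0.580) and miR-194-1-3p at 3.24 CPM (0 to 0.179). The log2 ratios of library 4 apart from its group were miR-194-2-3p to miR-194-1-3p at 3.70 (7.52 to 9.36), miR-192-5p to miR-194-5p at 4.46 (4.56 to 4.65) and miR-215-5p to miR-192-5p at -6.60 (-13.12 to -11.15).

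In HFoleic, the family share of library 12 was the lowest at 20.6% (22.01 to 23.2%), and the log2 ratio of miR-192-5p to miR-194-5p of library 14 was the highest at 5.11 (4.57 to 4.82). In HFepa, miR-194-1-3p of library 17 was the highest at 0.526 CPM (0 to 0.224), which is 2 counts.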

How the results depend on the processing

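No paired analysis was possible because the labels number the libraries 1 to 23 and no number is shared between groups. In HFoleic vs. reference, 2 members were called; 0 were called with DESeq2, with quantile normalization, with only the 2 groups compared, with a term for library number, in libraries 1 to 11 alone and without libraries 3 and 4, and 1 with library totals or with no filter. Leaving out 1 library each gave 0 to 2. In HFepa vs. reference, 1 member was called and 0 with DESeq2, quantile normalization, only the 2 groups, the term for library number and without libraries 3 and 4; leaving out 1 library gave 0 to 1. In HFepa vs. HFoleic it was 0 throughout. miR-192-3p in HFoleic vs. reference stayed between 0.25 and 0.46 in the settings that took its call away, with adjusted p-values of 0.0507 to 0.690.

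Signs turned for members that did not pass the test and for miR-215-5p. DESeq2 put miR-215-5p at 0.023 (HFoleic vs. reference) and 0.0032 (HFepa vs. reference). Without libraries 3 and 4, HFoleic vs. reference gave -0.055 for miR-194-5p, -0.090 for miR-194-2-3p and 0.11 for miR-215-5p, and HFepa vs. reference -0.015 for miR-192-5p, -0.058 for miR-194-5p and 0.083 for miR-215-5p. Quantile normalization put HFepa vs. reference at -0.0036 for miR-192-5p, -0.0012 for miR-194-5p and 0.11 for miR-194-2-3p, and HFepa vs. HFoleic at 0.063 for miR-215-5p; the term for library number gave 0.023 for miR-194-2-3p in HFepa vs. reference. For miR-194-5p in HFepa vs. HFoleic, leaving the members out of the scaling gave 0.0096, only the 2 groups 0.0029, the term for library number 0.033 and libraries 12 to 23 alone 0.042. Leaving out 1 library gave, in HFoleic vs. reference, -0.012 to 0.13 for miR-194-5p, -0.013 to 0.17 for miR-194-2-3p and -3.25 to 0.033 for miR-215-5p. In HFepa vs. reference it gave -0.039 to 0.10 for miR-194-5p and -0.16 to 0.029 for miR-194-2-3p, and in HFepa vs. HFoleic -0.046 to 0.020 for miR-194-5p and -0.12 to 0.060 for miR-215-5p.

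Of the log2 ratios, in HFoleic vs. reference miR-215-5p to miR-215-3p was 0.40 and miR-194-2-3p to miR-194-1-3p -0.029 in libraries 1 to 11 alone. Without libraries 3 and 4 the latter was -0.16, and miR-215-5p to miR-192-5p was 0.016 in HFoleic vs. reference and 0.096 in HFepa vs. reference. In libraries 12 to 23 miR-215-5p to miR-192-5p was -0.043 in HFepa vs. HFoleic, and with a pseudocount of 0.1 miR-194-2-3p to miR-194-1-3p was 0.13 in HFepa vs. reference. Leaving out 1 library gave, in HFoleic vs. reference, -0.23 to -0.15 for miR-192-5p to miR-192-3p, past the threshold without library 10 (exact permutation adjusted p = 0.0280), and 0.090 to 0.17 for miR-192-5p to miR-194-5p, past it without library 23 (exact permutation adjusted p = 0.0476). It gave -0.012 to 0.085 for miR-194-5p to its 3p arms and -0.14 to 0.69 for miR-194-2-3p to miR-194-1-3p in HFoleic vs. reference, -0.68 to 0.26 for the last in HFepa vs. reference and -0.023 to 0.62 for miR-215-5p to miR-215-3p in HFepa vs. HFoleic. Ratios to miR-194-1-3p or miR-215-3p rest on 0 to 5 counts outside library 4 and depend on the pseudocount. The difference in family share of HFoleic vs. reference, 2.32 percentage points, was 1.29 to 2.65 with 1 library left out, 1.29 being without library 3, 1.07 without libraries 3 and 4, and 3.61 as a percentage of the counts of all other miRNAs. The shifts to 1.29 and 1.07 were larger than the HFoleic SD of 0.810 and smaller than the reference SD of 3.09, which includes library 3. HFepa vs. reference went from 1.07 to -0.19 points without libraries 3 and 4. The causes of these changes were not tested beyond the libraries left out.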
